A study of Mus musculus with 16 samples.

Results

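The RNAs described here come from 97 protein-coding genes of neuronal adhesion and synapse families: neurexins and neuroligins, contactins and Cntnap proteins, Cadm proteins, cadherins and protocadherins, alpha- and delta-catenins, Csmd and *Lrp1b*, *Dpp6* and *Dpp10*, teneurins, latrophilins and Lrrtm proteins, the Dlg, Dlgap and Magi scaffolds, the IgLON genes *Lsamp*, *Ntm* and *Opcml*, and the receptor-type protein tyrosine phosphatases (Ptpr). They were chosen by the start of the gene name, with *Tenm4* and *Cntn4* left out, among the protein-coding RNAs (pcRNAs) of 2 tables of RNA–DNA pairs, which held 10736 pcRNAs and 12080 RNAs in all. Input listed 85 of them and H3K27me3-RADIP listed 87, with 75 in both. The annotation holds 180 protein-coding genes under the same rule, and 83 of these had no pair in either table. Most of the missing ones were clustered protocadherins, of which 57 are annotated and 2 had a pair.

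Proteins of these families sit at contacts between cells. Neurexins on the axon bind neuroligins and Lrrtm proteins on the receiving neuron, latrophilins bind teneurins, cadherins bind each other and are tied to actin by catenins, and Dlg and Magi proteins hold receptors in place beneath the membrane. Many of the genes are among the longest in the genome, with introns that far outweigh their exons. H3K27me3 is the mark that Polycomb repressive complex 2 places on silent chromatin, and in embryonic stem cells it covers many genes that act later in development.

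Both libraries came from mouse embryonic stem cells of the line PGK12.1, grown with Leukemia Inhibitory Factor and fixed with 1% formaldehyde. In RADIP an adaptor joins an RNA to DNA near it inside the fixed nucleus, and an antibody against H3K27me3 then selects the joined molecules. The Input group kept a portion of the same kind of joined molecules that was not selected with the antibody. The groups thus share the cell line, the fixation and the ligation and differ in the selection with its washes. In the study's protocol they also differ in the time given to reversing the crosslinks. The labels list 8 libraries per group, merged by the authors into 1 table per group, and nothing here can therefore be set against the spread between replicates or between cell lines.

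In both tables a line stands for 1 pair, an RNA tag with the DNA tag it was joined to. Input held 1305107 pairs and H3K27me3-RADIP held 1415135, of which 1261178 and 1359456 belonged to pcRNAs. The authors had kept only combinations of an RNA and a 25-kb bin of DNA with an adjusted P-value (q-value) of at most 0.1, and the smallest member combination held 7 pairs in each library. An RNA that is not listed may thus have had pairs below that limit, and no upper bound on its pairs follows. All intervals given below are 95% intervals for counting error alone. They and the tests on pairs take pairs as independent. A combination was kept or dropped with all its pairs, so the intervals may be too narrow. Tests on pairs compare these 2 merged libraries, not the conditions.

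The name rule did not return long neuronal genes only. The members had a median annotated length of 227 kb, against 38.5 kb for all pcRNAs in the tables, and they ran from 14.7 kb (*Nlgn2*) to 2271 kb (*Ptprd*). Of the 97, 70 were at least 100 kb long and 27 were shorter. *Ntmt1*, a methyltransferase of protein N-termini, entered through its first 3 letters, and *Dlgap5* is known from the mitotic spindle. *Cdh1* (E-cadherin) is the cadherin of epithelial and embryonic stem cells, and *Cdh5* and *Ptprb* are known from blood vessels. Of 15 stem cell marker genes, 10 were listed, with 4347 pairs in Input and 4581 in H3K27me3-RADIP, led by *Esrrb* with 2388 and 2500. By the exact test described below, *Sall4* rose from 22 to 52, and the other 7 that could be tested did not pass. The glia marker *Mbp* rose from 36 to 85. Of 10 neuron markers, 5 had pairs, 549 and 708 in all. *Rbfox3* rose from 259 to 470 and *Syt1* fell from 33 to 10, *Map2* (119 and 104), *Stmn2* (121 and 93) and *Gad1* (17 and 31) did not pass, and the median log2 ratio of the 5 was -0.23. The markers *Tubb3*, *Snap25*, *Slc17a6*, *Neurod1* and *Dcx* were not listed. *Pou5f1* and *Nanog* were not listed either, so absence from these tables is no sign that a gene was silent.

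The members carried 32633 pairs in 1574 combinations in Input and 37658 pairs in 1822 combinations in H3K27me3-RADIP. Their share of all pcRNA pairs was 2.59% (2.56 to 2.62) in Input and 2.77% (2.74 to 2.80) in H3K27me3-RADIP. The difference of 0.183 percentage points (0.143 to 0.222) was larger than the counting error of independent pairs by a chi-square test on pairs (chi-square 83.5). Introns gave 96.3% of the members' RNA tags in Input and 96.4% in H3K27me3-RADIP, against 88.9% and 89.6% for all pcRNAs. Whether these tags came from unspliced RNA or from excised introns cannot be told apart.

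A few RNAs supplied most of the pairs, and 5 members held 56.4% of them in Input and 58.0% in H3K27me3-RADIP. *Magi1*, a scaffold of cell junctions, had the most pairs, 5733 in Input and 6503 in H3K27me3-RADIP, on 183 and 268 bins. *Ptprg*, a phosphatase that binds contactins, had 5472 and 5839 pairs on 176 and 233 bins. *Dpp6*, a partner subunit of voltage-gated potassium channels, had 3099 and 3659 pairs. *Cadm1*, an immunoglobulin-type adhesion protein, had 2497 and 3390, and *Cdh4* (R-cadherin) had 1585 and 2463. *Ptprk*, a phosphatase that binds its like on the next cell, had 1593 and 1101 pairs and was the largest member that passed the same test downwards. *Ctnna1* (alpha-E-catenin) had 1083 and 970, *Tenm3* (a teneurin) had 956 and 1127, and *Cdh13* (T-cadherin) had 723 and 1156. Per 100 kb of gene, the *Magi1* values were 942 pairs in Input and 1069 after selection, and those of *Csmd1*, a gene of 1643 kb, were 34.1 and 36.2. The long genes were therefore not alike in the pairs they gave per length. Across the members, Spearman's rho between gene length and number of pairs was 0.29 in Input (85 RNAs) and 0.26 in H3K27me3-RADIP (87 RNAs), against 0.52 and 0.56 across all pcRNAs. The points share the same 2 libraries, and the lower values are a description.

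**Figure D1:**
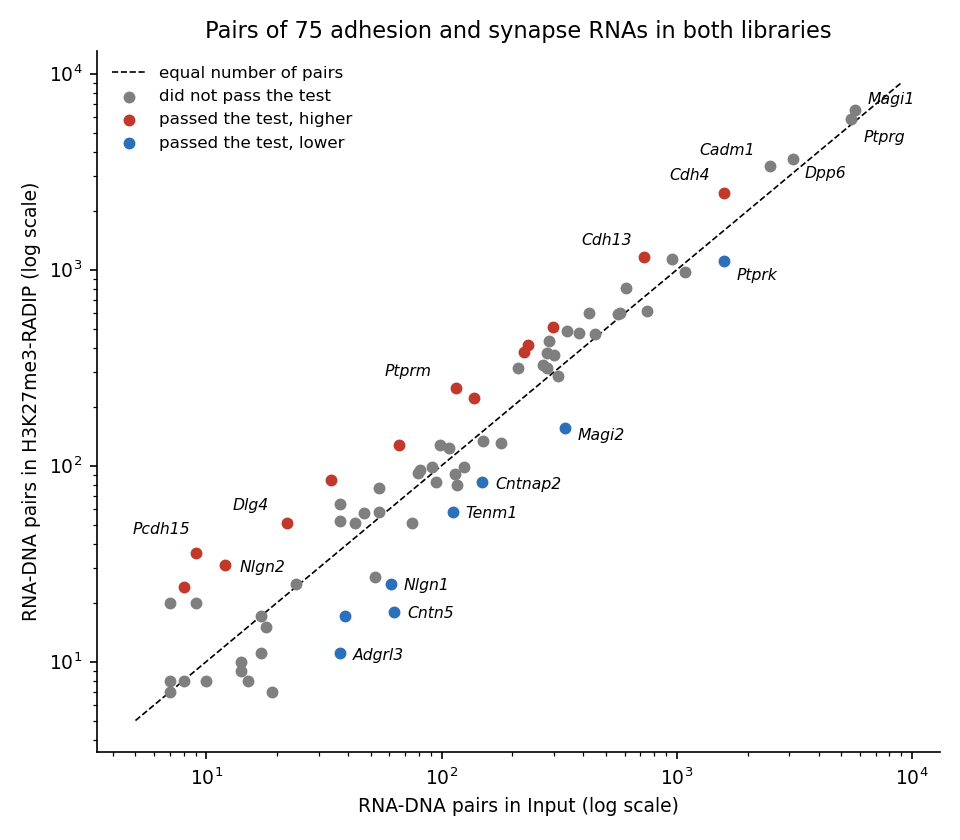
Number of RNA–DNA pairs of each of the 75 members listed in both libraries, Input on the horizontal axis and H3K27me3-RADIP on the vertical axis, both logarithmic, with 1 point per RNA and no error bars because replicates were merged. The dashed line marks equal numbers before normalization, red points are the 13 that passed the test upwards and blue points the 8 that passed it downwards, and *Magi1* lies at the upper right with 5733 and 6503 pairs.

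The RNA tags were spread over the introns, and the most used position of even the largest members held few of their pairs. These 25-base tags show what was read from the RNA side, with G and C in capitals, for the 2 members with the most pairs and for the member with the most pairs among those that rose and among those that fell. Each sequence occurs once on the autosomes and sex chromosomes of the genome build GRCm38.
*Magi1*, chr6:94271991-94272015, minus strand: aGGtCttaGCGtGCCtttattCtGG
*Ptprg*, chr14:11789321-11789345, plus strand: aGtGtattCCatGGttatGtGtCtC
*Cdh4*, chr2:179571807-179571831, plus strand: ataCaCatGtGCaCaGaCtaCataC
*Ptprk*, chr10:28121852-28121876, plus strand: atGaGtttaaCtaGaGCtGtCttaG
The *Magi1* tag lies in an intron, 11.9 kb from the gene start, and had 21 pairs in each library, joined to DNA in 16 bins in Input and 18 bins in H3K27me3-RADIP. The *Ptprg* tag, 236 kb into the gene, had 12 and 8 pairs. The *Cdh4* tag had 7 pairs in each library, and the *Ptprk* tag had 7 and 4. None of these positions held as much as 1% of its RNA's pairs.

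To ask which of these RNAs had more or fewer listed pairs with the antibody, listed pairs per RNA were normalized by the trimmed mean of M values (TMM) and compared by an exact negative binomial test over all 8158 pcRNAs listed in both libraries, at an adjusted P of at most 0.1 and a log2 ratio of at least 0.5. Of the 75 members tested, 13 rose in listed pairs in H3K27me3-RADIP and 8 fell, while 54 did not pass. Over all tested pcRNAs the background was 6.9% higher and 7.51% lower, and the members' counts came to 17.3% and 10.7%. These percentages compare RNAs of unlike depth. The median listed RNA carried 79 pairs among members and 33 among all pcRNAs before selection, and 80 and 30 after it. The background was not matched for number of pairs, and the part of depth in the members' higher percentages was not tested. The members' median log2 ratio was 0.15, with quartiles at -0.36 and 0.48, against -0.01 over all tested pcRNAs. The test needs a value for the variation between replicates, which these tables cannot give, and 0.1 was assumed. With 0.2 in its place, only *Cntn5* still passed, and 0.527% and 0.797% of all pcRNAs passed upwards and downwards.

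The authors' limit was applied to each bin in each library separately, and a bin below it in a library counts there as 0. The log2 ratios below are therefore ratios of listed pairs and no fold changes of an RNA, and they move with the number of bins listed. The 8 members that fell had 138 listed bins in Input and 86 in H3K27me3-RADIP, with 64 in both, and all 8 had fewer bins, while their median number of pairs per listed bin was 9.63 and 10.6. The 13 that rose had 218 and 290 bins with 203 in both, and medians of 11.3 and 16.9 pairs per bin. When only combinations listed in both libraries were counted, a step chosen after the data were seen, none of the 64 members that could be tested passed, against 0.115% higher and 0.384% lower of the 7806 pcRNAs left. Over these shared bins the log2 ratio lay between 0.55 and 1.27 for *Cdh4*, *Cdh13*, *Cdh22*, *Csmd2*, *Ptprs*, *Nrxn2* and *Dlg4*. It was 0.37 for *Cdh6*, 0.28 for *Tenm2*, 0.17 for *Nlgn2*, 0.052 for *Ptprm* and 0.094 for *Ptpre*. Among those that fell it was -0.40 for *Ptprk*, -0.61 for *Dlgap5* and -0.27 for *Nlgn1*, and -0.081 for *Magi2*, -0.028 for *Cntnap2*, 0.052 for *Cntn5* and 0.012 for *Tenm1*. *Pcdh15* and *Adgrl3* had no shared bin. A bin must pass in both libraries to be counted here, which itself favours bins that are alike. The calls of the families below are a description of listed pairs, and their counts are too small to be set apart from the 6.9% and 7.51% of all pcRNAs.

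Among the neurexins and neuroligins, listed pairs of the 2 neuroligins went opposite ways, on 7 and 3 bins for *Nlgn1* and on 1 and 2 for *Nlgn2*. *Nlgn1*, which encodes the neuroligin of excitatory synapses, fell from 61 pairs in Input to 25 in H3K27me3-RADIP (log2 ratio -1.32, interval -2.05 to -0.63, exact test adjusted P = 0.018). *Nlgn2*, the neuroligin of inhibitory synapses, rose from 12 to 31 (log2 ratio 1.34, interval 0.34 to 2.43, exact test adjusted P = 0.086). Over bins listed in both libraries the pairs were 20 and 16 for *Nlgn1* and 12 and 13 for *Nlgn2*, and neither passed. The genes differ widely in length, 906 kb for *Nlgn1* and 14.7 kb for *Nlgn2*. *Nrxn2* rose from 137 to 220 pairs (log2 ratio 0.65), and *Nrxn3*, at 91 and 98 pairs, did not pass. Among the contactins and Cntnap genes, *Cntn5* fell from 63 to 18 (log2 ratio -1.84, interval -2.68 to -1.07, exact test adjusted P = 0.00094), on 7 and 2 bins of which 1 was shared, with 9 pairs per listed bin in both libraries. *Cntnap2*, which organizes potassium channels along the axon, fell from 149 to 82 (log2 ratio -0.89, adjusted P = 0.026 by the exact test). *Cntnap4* had 37 and 52 pairs and *Cntn2* had 18 and 15, and neither passed.

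The teneurin and latrophilin group held changes both ways. *Tenm1*, on the X chromosome, fell from 112 to 58 pairs (log2 ratio -0.98), and *Adgrl3*, a latrophilin, fell from 37 to 11 (log2 ratio -1.78, interval -2.90 to -0.78), on 4 bins and 1 bin with none shared. With a q-value limit of 0.01 in place of 0.1, the log2 ratio of *Adgrl3* was -0.020, and it did not pass. *Tenm1* did not pass then either (log2 ratio -0.63). *Tenm2* rose from 223 to 381 (log2 ratio 0.74), with 184 and 215 pairs over its 17 shared bins (log2 ratio 0.28). *Tenm3* and *Adgrl1*, with 956 and 1127 and with 287 and 430 pairs, did not pass. *Lrrtm4*, a partner of neurexins, had 52 and 27 pairs and did not pass either (adjusted P = 0.11 by the exact test).

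The scaffolds lie beneath the synaptic membrane. *Magi2* showed the smallest adjusted P of all members and fell from 334 to 156 pairs (log2 ratio -1.13, interval -1.41 to -0.85, exact test adjusted P = 0.00045), on 31 bins in Input and 14 in H3K27me3-RADIP with 9 shared. Its pairs per listed bin were 10.8 and 11.1, and the 9 shared bins held 113 and 103 pairs. Its relative *Magi1* had 5733 and 6503 pairs (log2 ratio 0.15) and did not pass. *Dlg4*, which encodes PSD-95, rose from 22 to 51 (log2 ratio 1.18). *Dlgap5* fell from 39 to 17 (log2 ratio -1.23). The other 10 of the 13 scaffold RNAs did not pass, *Dlg1* with 745 and 612 and *Dlgap2* with 605 and 804 among them.

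Of the 12 cadherins tested, 4 rose and none fell, and none of the 4 passed with the GC trend removed (described below), with an assumed variation of 0.2 or over shared bins. *Cdh4* rose from 1585 to 2463 pairs (log2 ratio 0.60, interval 0.51 to 0.70), *Cdh13* from 723 to 1156 (log2 ratio 0.64), *Cdh22* from 66 to 127 (log2 ratio 0.91) and *Cdh6* from 8 to 24 (log2 ratio 1.55, interval 0.35 to 2.92). *Cdh1* had 448 and 470 pairs (log2 ratio 0.04) and *Cdh2* (N-cadherin) 179 and 130 (log2 ratio -0.49), and neither passed. Among protocadherins, *Pcdh15*, a protein of the hair cell tip link, rose from 9 to 36 (log2 ratio 1.97, interval 0.89 to 3.21). Its single Input bin was not among its 4 bins in H3K27me3-RADIP. Such small numbers sit close to the 7 pairs that a listed bin needs, so the ratios of *Pcdh15*, *Cdh6* and *Nlgn2* may move with 1 listed bin.

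Of the 15 Ptpr RNAs tested, 3 rose and 1 fell. *Ptprm* rose from 115 to 248 pairs (log2 ratio 1.08, interval 0.75 to 1.41, exact test adjusted P = 0.0019), with 115 in each library over its 11 shared bins, *Ptpre* from 34 to 84 (log2 ratio 1.27) and *Ptprs*, a receptor for proteoglycans on axons, from 234 to 412 (log2 ratio 0.78). *Ptprk* fell from 1593 to 1101 (log2 ratio -0.57, interval -0.68 to -0.45, exact test adjusted P = 0.068). *Ptprg*, the member of this family with the most pairs, had a log2 ratio of 0.06, which became -0.012 with totals of pcRNA pairs in place of TMM. *Csmd2* rose from 296 to 507 (log2 ratio 0.74), while *Csmd1* (561 and 595) and *Lrp1b* (10 and 8) did not pass. None of the 6 catenin, 3 IgLON, 2 Dpp and 1 Cadm RNAs tested passed. Among them *Ntm* had 341 and 486 pairs (log2 ratio 0.48), *Cadm1* had a log2 ratio of 0.41, and *Ctnnd1*, with 116 and 80 pairs, and *Dpp10*, with 17 and 11, had log2 ratios of -0.57 and -0.66.

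A further 22 members were listed in 1 library. The 10 in Input only came to 10.3% of the members and the 12 in H3K27me3-RADIP only to 12.4%, against 10.5% and 13.5% of all pcRNAs, so these shares were near the background. *Cntn3* was the largest of those in Input only, with 34 pairs on 4 bins. *Cdh12*, *Cadm2*, *Pcdh7* and *Cdh17* had 7 to 9 pairs on 1 bin. *Cdh5* led those in H3K27me3-RADIP only, with 24 pairs, followed by *Ptprb* with 21, *Pcdha1* with 15, *Cdhr1* with 12, and *Cadm3* and *Cntnap1* with 11 each. Other annotated genes overlap some members on the same strand, 24 of them for *Cntnap2* and 22 for *Dlg2*, and tags there may have been assigned to either gene. All 15 RNA tags of *Pcdha1* were intronic. Other alpha protocadherins lie within its annotated span on the same strand, so these tags may belong to another of them.

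The direction of change went with the base composition of the genes. The 13 members that rose had a median gene GC content of 48.0% (38.5 to 55.8), the 8 that fell had 37.8% (36.6 to 45.2), and the 54 others had 42.1%. The 8 that fell included 6 genes of 805 to 2245 kb, *Cntnap2*, *Magi2*, *Cntn5*, *Nlgn1*, *Tenm1* and *Adgrl3*. At most 0.89% of the pairs of any of these 6 lay outside the RNA's own gene. Pearson's r between gene GC content and log2 ratio was 0.48 across the 75 members and Spearman's rho was 0.55. The same relation ran through all pcRNAs, at 0.36 and 0.39 across 8157 of them, so it is not particular to these genes. In 20 classes of GC content the median log2 ratio of pcRNAs with at least 50 pairs went from -0.72, in genes around 37.6% GC, to 0.46, in genes around 54.3%. RNAs share libraries and are not independent points, and no test was applied.

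**Figure D2:**
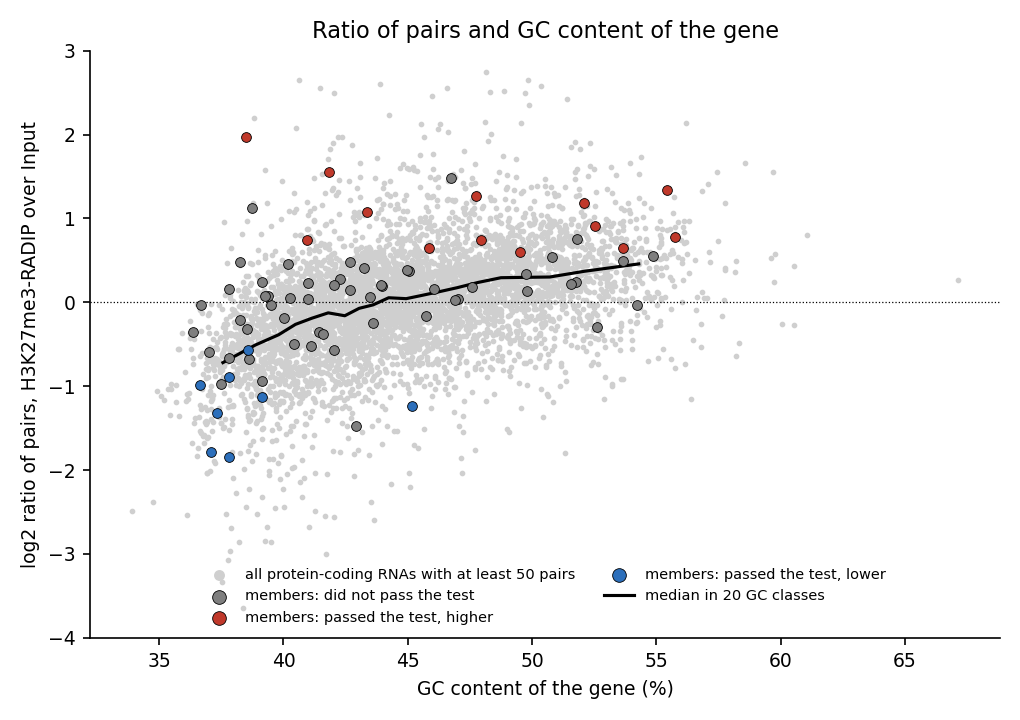
Log2 ratio of pairs in H3K27me3-RADIP over Input (vertical axis) against the GC content of the gene in percent (horizontal axis), with 1 point per RNA. Grey dots are pcRNAs with at least 50 pairs over both libraries, outlined points are members, and the black line is the median in 20 GC classes, which runs from -0.72 to 0.46; 7 of the 8 blue members lie below 40% GC.

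After this trend was removed, a step chosen after the data were seen, 6 members passed upwards and 1 downwards, against 3.54% and 3.47% of all pcRNAs. Of the 21 members called before, 5 still passed: *Pcdh15*, *Ptpre*, *Ptprm*, *Tenm2* and *Dlgap5*. *Dlg2* (54 and 77 pairs) and *Lsamp* (108 and 123 pairs) passed only then, with adjusted log2 ratios of 1.09 and 0.83 relative to genes of like GC content. *Cntn5*, *Magi2*, *Nlgn1*, *Tenm1*, *Cntnap2* and *Adgrl3* no longer passed, and their adjusted log2 ratios lay between -1.16 and -0.22. Among the members that had risen, *Cdh6* (1.68, adjusted P = 0.11 by the exact test), *Nlgn2* (0.88), *Dlg4* (0.81), *Cdh13* (0.54), *Cdh22* (0.52) and *Csmd2* (0.50) no longer passed, nor did *Ptprs*, *Cdh4* and *Nrxn2*, at 0.22 to 0.33. The value of *Ptprk* moved from -0.57 to -0.0095. The part of base composition in the changes of single members was not tested.

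The shift in base composition lay on the DNA side of the pairs. The members' DNA tags had a mean GC content of 43.5% in Input and 46.5% in H3K27me3-RADIP, while their RNA tags had 45.7% and 45.9%. For all pcRNAs the DNA tags went from 44.5% to 47.8% and the RNA tags from 46.8% to 47.0%. Within genes the pattern was the same. Of the 52 members with at least 30 pairs in each library, 45 had DNA tags richer in GC in H3K27me3-RADIP, with a median difference of 2.43 percentage points, and 25 had richer RNA tags, with a median difference of -0.14 points. Across 4313 pcRNAs of that depth, DNA tags were richer for 90.3% and RNA tags for 37.5%. In *Magi1* the DNA tags went from 42.6% to 45.9% and the RNA tags from 45.1% to 44.6%. In *Ptprk*, which fell, the DNA tags went from 38.5% to 42.6%. The 7 without richer DNA tags were *Ptpre* (-3.03 points) and *Csmd2* (-1.16), which rose, *Magi2* (-0.40) and *Tenm1* (-0.095), which fell, and *Opcml*, *Ptprf* and *Cdh23*, which did not pass.

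**Figure D3:**
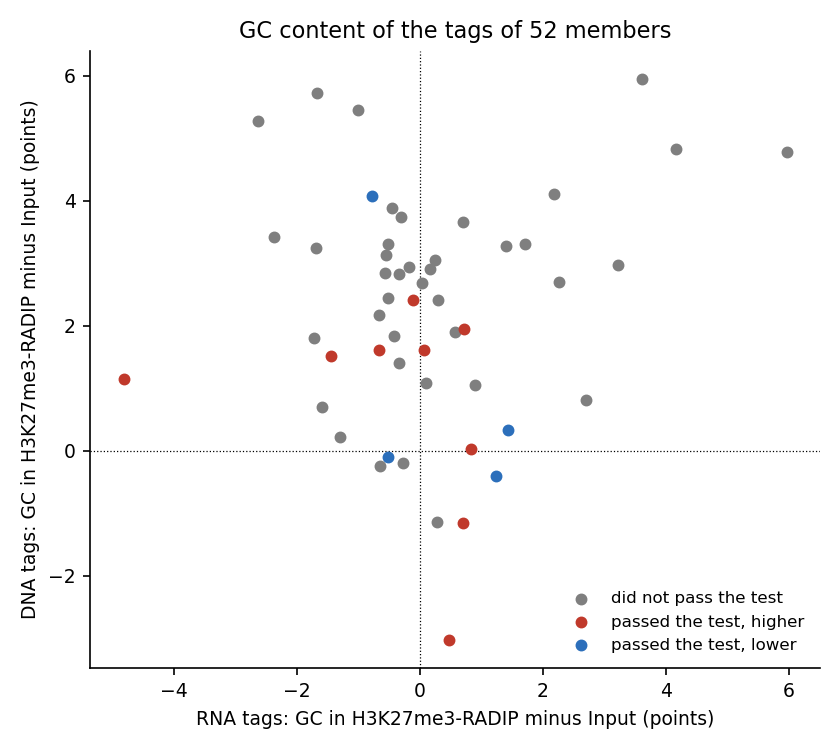
Difference in mean GC content of the 25-base tags, H3K27me3-RADIP minus Input in percentage points, for RNA tags (horizontal axis) and DNA tags (vertical axis) of the 52 members with at least 30 pairs in each library, 1 point per RNA with no error bars. The points spread to both sides of 0 on the RNA axis, and 45 of 52 lie above 0 on the DNA axis.

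Next, the reach of the RNAs along their own chromosome (*cis*) was measured as the distance between the centres of the RNA and DNA tags. Pooled over the members, the median distance lay at 154 kb in Input against 191 kb after the antibody selection, where the other genes of at least 100 kb had 89.3 and 127 kb. Pairs of more than 100 kb, the limit for long range used in the study, made up 57.1% (56.5 to 57.6) in Input and 60.4% (59.9 to 60.9) in H3K27me3-RADIP, or 3.30 percentage points more (interval 2.57 to 4.03, chi-square 78.4). Pairs of more than 1 Mb went from 12.1% to 16.8% (difference 4.64 points, 4.12 to 5.16). These values are over pooled pairs, most of which came from 5 members. Set against other genes of at least 100 kb, the members' pooled share above 100 kb moved by fewer points and that above 1 Mb by more. In those other genes the share above 100 kb went from 47.8% to 54.6% or by 6.78 points (6.63 to 6.93), and the share above 1 Mb from 6.55% to 10.03%, or by 3.49 points (3.40 to 3.57). The differences between these shifts were not tested.

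The shift was not shared by all members. Of the 64 RNAs that had 10 or more *cis* pairs in each library, 21 (32.8%) had a median distance at least 1.5 times longer in H3K27me3-RADIP and 12 (18.8%) at least 1.5 times shorter. Over all pcRNAs of that depth the background was 41.7% longer and 13.9% shorter. Among the 1837 other genes of at least 100 kb and that depth, 36.4% were at least 1.5 times longer. Of the 49 members of that length and depth, 16 were. *Magi1* had the longest median of the large members, 439 kb before and 640 kb after the selection with the antibody. *Cadm1* went from 293 to 415 kb, *Ptprg* from 358 to 425 kb, *Dpp6* from 351 to 421 kb and *Cdh4* from 254 to 296 kb. *Ctnna1* went from 74.2 to 130 kb, *Cdh1* from 43.9 to 75.3 kb, *Cdh13* from 41.2 to 65.0 kb and *Csmd2* from 28.7 to 51.6 kb. *Magi2*, which fell in pairs, had medians of 23.9 and 58.0 kb. *Tenm3* was shorter in H3K27me3-RADIP, at 152 and 126 kb, as was *Tenm2*, at 14.5 and 8.43 kb, and *Ptprk* was nearly level at 139 and 134 kb. *Dlg4*, *Nlgn2*, *Ptpru*, *Ptpre* and *Ptpra* had the shortest mean distances in H3K27me3-RADIP among members with at least 30 pairs there, from 5.09 to 21.05 kb. With each member given the same weight, the share above 100 kb was 26.9% in Input and 27.8% in H3K27me3-RADIP, so the pooled shift came mainly from the members with many pairs. When only combinations listed in both libraries were kept, the shift was 1.20 points (0.41 to 1.99), and 12 of 55 members were at least 1.5 times longer and 11 at least 1.5 times shorter. The shares of all pcRNAs under this restriction were not computed, so these counts have no background.

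**Figure D4:**
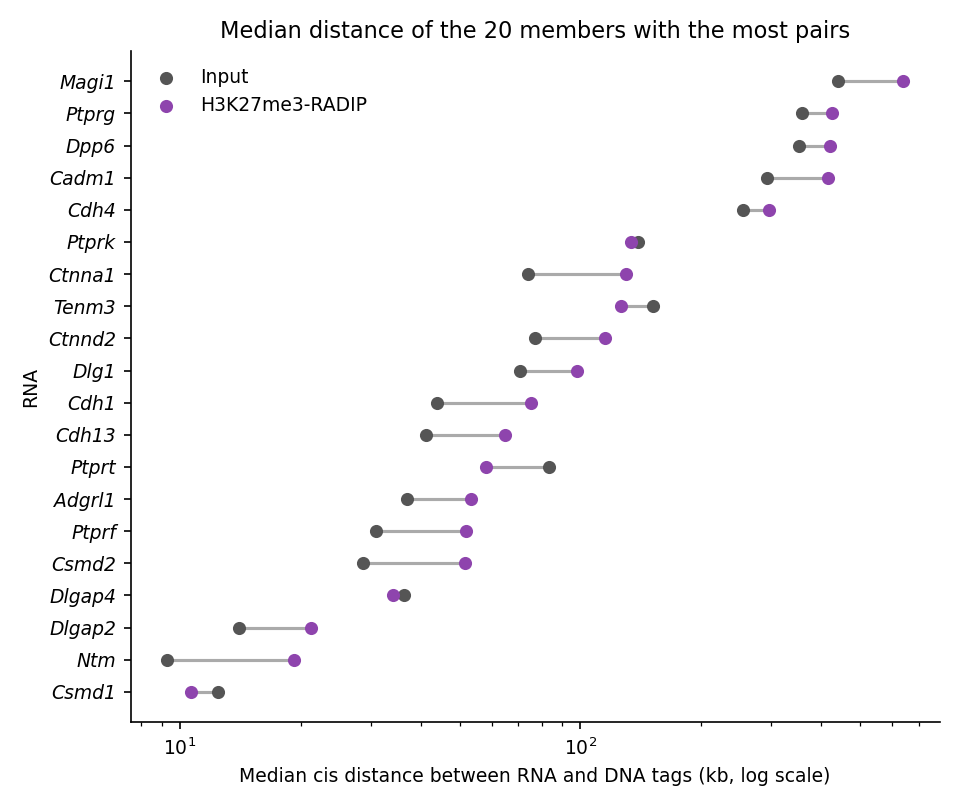
Median *cis* distance between RNA and DNA tags in kb, on a logarithmic axis, for the 20 members with the most pairs, Input in grey and H3K27me3-RADIP in purple, 1 row per RNA and no error bars. *Magi1* stands at the top with 439 and 640 kb, and the purple point lies to the left for *Ptprk*, *Tenm3*, *Ptprt*, *Dlgap4* and *Csmd1*.

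Because a long gene gives long distances inside its own body, pairs with DNA beyond the ends of the RNA's own gene were counted apart. They made up 41.1% (40.6 to 41.6) of the members' *cis* pairs in Input and 46.3% (45.8 to 46.8) in H3K27me3-RADIP (difference 5.18 points, 4.45 to 5.92, chi-square 191). The difference was 1.85 points (1.07 to 2.63) over combinations listed in both libraries and 2.37 points with each member given the same weight. Other genes of at least 100 kb had higher shares, 43.9% and 51.4%, as had all pcRNAs, 43.1% and 51.3%. In *Magi1* the share went from 58.8% to 67.7%, in *Cadm1* from 64.8% to 72.2%, in *Ctnna1* from 57.8% to 71.6% and in *Dlg1* from 46.0% to 63.6%. In *Ptprk* it was 35.5% in both libraries. It was lower in H3K27me3-RADIP in 15 of the 64 members with at least 10 *cis* pairs in each library and higher in 32. *Cdh2* went from 15.6% to 4.62%, *Ctnnd1* from 49.1% to 36.25%, *Ptprn2* from 7.86% to 0.53% and *Cdh22* from 13.6% to 5.51%. *Csmd1*, *Lsamp*, *Nrxn3*, *Cntnap2* and *Magi2*, with lengths of 1478 to 2245 kb, had 0 to 0.34% of their pairs outside the gene in either library, while *Ptprt*, of 1139 kb, had 0.26% in Input and 11.8% in H3K27me3-RADIP, and *Cdh13*, of 1041 kb, had 8.71% and 14.8%. Some members were thus found on their neighbourhood and others almost wholly on their own gene. *Magi1* was outside its gene on 160 bins in Input and 244 in H3K27me3-RADIP, with 138 in both. The 106 bins found only in H3K27me3-RADIP held 1055 pairs, and the farthest lay 52466 kb from the gene against 34116 kb in Input. The farthest bins of *Ptprg* lay at 22633 kb before and 45133 kb after selection. *Cdh1* RNA was found on the neighbouring gene *Cdh3* with 21 pairs in Input and 41 in H3K27me3-RADIP, and *Cdh4* RNA on *Cdh26* with 21 pairs in each.

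The bin outside a member's gene with the largest gain in pairs was the one that holds the start of *Fezf2*, which encodes a transcription factor of forebrain neurons. *Ptprg* RNA had 85 pairs there in Input and 142 in H3K27me3-RADIP. The bin covers chr14:12325001-12350000 (mm10), and the annotated start of *Fezf2* lies 106 kb beyond the end of *Ptprg*. It took 1.55% of the *cis* pairs of *Ptprg* in Input and 2.45% in H3K27me3-RADIP, a ratio of 1.58 (1.20 to 2.09). In H3K27me3-RADIP no other bin had more pairs with *Ptprg* RNA, bins inside the gene included, whereas in Input the bin ranked 24th. The bins on either side held 46 and 60 pairs in Input and 49 and 54 after selection. The 142 pairs came from 126 positions of the RNA, and 13 of them repeated the tags of another pair. Within 2 kb of the start the pairs were 18 and 21. In steps of 5 kb along the bin the pairs were 24, 14, 11, 15 and 21 in Input and 15, 21, 30, 40 and 36 in H3K27me3-RADIP, so the gain lay towards the end of the bin away from *Ptprg*. This bin was chosen for its gain, and the values are a description with no test. The next largest gains lay on bins without the start of a protein-coding gene. They were those of *Ptprg* RNA at chr14:12500001-12525000 (36 and 73 pairs) and *Cadm1* RNA at chr9:47850001-47875000 (29 and 63). Bins with any protein-coding start held 17.9% of the members' pairs outside the own gene in Input and 20.0% in H3K27me3-RADIP.

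**Figure D5:**
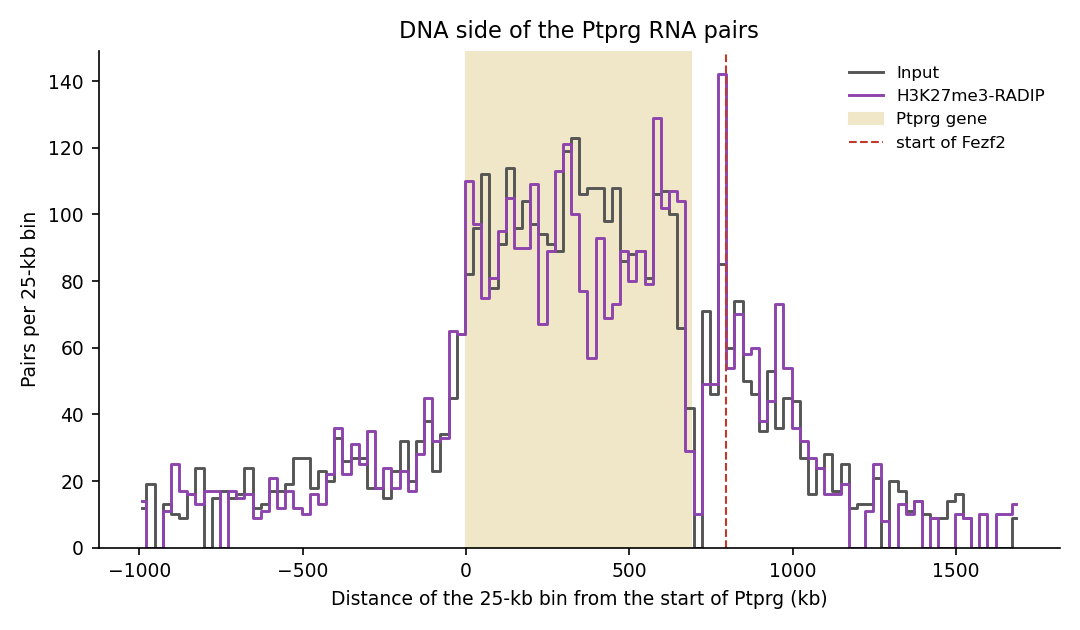
Pairs of *Ptprg* RNA per 25-kb bin of DNA (vertical axis) against the distance of the bin from the start of the *Ptprg* gene in kb (horizontal axis), Input in grey and H3K27me3-RADIP in purple, counts with no error bars. The shaded span is the *Ptprg* gene and the dashed line the start of *Fezf2*, where the purple line peaks at 142 pairs and the grey line stands at 85.

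Bins that hold the start of a developmental regulator were then listed, with gene names picked after these values had been seen. Members had pairs outside their own gene on 5 such bins in Input and on 10 in H3K27me3-RADIP, the 5 among them, with 145 and 275 pairs. *Dpp6* RNA was found on the bin of *En2*, a homeobox gene of the midbrain and hindbrain, with 13 and 25 pairs, and on that of *Shh*, a secreted patterning signal, with 16 and 28. *Dpp6* was also found on the bins of *Mnx1*, a motor neuron regulator (10 pairs), and *Gbx1* (8 pairs) in H3K27me3-RADIP, and neither combination was listed in Input. *Magi1* RNA was found on those of *Vax2* (10 pairs), *Emx1* and *Gata2* (8 pairs each) in the same way, and on that of *Wnt7a* with 16 and 19 pairs. *Cdh4* RNA had 15 and 17 pairs on the bin of *Gata5*. Over all pcRNAs, pairs outside the own gene on such bins went from 3452 to 8784, a ratio of 2.54, while for the members the ratio was 1.90, and 2.22 without *Ptprg*. For all outside bins the ratios were 1.30 for the members and 1.29 for all pcRNAs. A bin below the authors' limit in a library counts as 0 in these sums, so they compare what was listed and are no fold changes, and nothing particular to the members is read from them.

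A gain of another kind was on the bin of *Prickle2*, a planar cell polarity gene, where *Magi1* RNA had 18 and 42 pairs. The 250 bases before a RefSeq start (GRCm38.p6) of 3 of these genes are shown, for *Prickle2* the start in the bin with 18 and 42 pairs, 5′ to 3′ on the gene's strand, with CG in capitals. RefSeq and GENCODE place the start of *Fezf2* at different positions of the same bin.
*Fezf2*, chr14:12345866-12346115, minus strand: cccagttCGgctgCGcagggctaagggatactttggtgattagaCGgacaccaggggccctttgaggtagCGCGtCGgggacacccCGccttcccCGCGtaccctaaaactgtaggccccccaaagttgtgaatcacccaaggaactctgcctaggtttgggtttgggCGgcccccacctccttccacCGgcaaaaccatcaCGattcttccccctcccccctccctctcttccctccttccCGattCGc
*Prickle2*, chr6:92706185-92706434, minus strand: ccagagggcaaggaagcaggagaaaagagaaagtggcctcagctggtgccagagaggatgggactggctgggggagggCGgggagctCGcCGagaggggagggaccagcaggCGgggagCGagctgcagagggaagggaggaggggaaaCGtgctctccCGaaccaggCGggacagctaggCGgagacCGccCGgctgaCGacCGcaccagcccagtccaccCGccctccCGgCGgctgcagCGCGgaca
*Mnx1*, chr5:29478471-29478720, minus strand: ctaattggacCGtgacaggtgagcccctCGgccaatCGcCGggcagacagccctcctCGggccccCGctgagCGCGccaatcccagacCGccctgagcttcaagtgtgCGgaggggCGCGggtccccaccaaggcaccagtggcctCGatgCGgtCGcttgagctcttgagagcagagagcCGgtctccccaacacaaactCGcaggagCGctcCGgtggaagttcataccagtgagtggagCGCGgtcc
The sequence CG, which reads the same on both strands, occurs 14 times before *Fezf2*, 18 times before this start of *Prickle2* and 21 times before *Mnx1*. Of 32851 promoter windows of this length in the table used, 92.1% hold it at least once, and the median is 6. RefSeq gives *Prickle2* another 3 starts in bins with *Magi1* pairs (16 and 25, 17 and 21, 17 and 20 in Input and H3K27me3-RADIP), and the windows before them hold 4, 5 and 4 CG. Windows with at least as many CG as that of *Fezf2* made up 29.4%, as that of *Prickle2* 21.7% and as that of *Mnx1* 16.3%. The pairs were assigned to whole bins, so these counts describe the letters and not a site of contact.

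Pairs with DNA on another chromosome (*trans*) were absent for the members in Input and numbered 64 in H3K27me3-RADIP. They came from *Ptprg* (48 pairs), *Magi1* (8) and *Dpp6* (8), and all lay on the same stretch, chr11:3125001-3200000. This stretch was not a target of the members alone. In all, 4 pcRNAs from other chromosomes were listed there in Input and 24 in H3K27me3-RADIP, with 37 and 317 pairs, and these were all 37 of the *trans* pairs of pcRNAs in Input and 317 of 341 in H3K27me3-RADIP. Each of the 64 DNA tags occurs once on the autosomes and sex chromosomes of the genome build as an exact match on either strand. The authors had kept only uniquely mapped tags, so a single match adds little. Near matches and unplaced sequence were not searched.

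Genes of adhesion and synapse outside the name rule were examined by a list of 72, of which 60 had pairs and 50 could be tested. In this list 12 rose and none fell, with a median log2 ratio of 0.32, against the same background of 6.9% and 7.51%. That background was not matched to the list for number of pairs. None of the 50 passed with an assumed variation of 0.2 or 0.4, and with none assumed 17 rose and 1 fell. None of the 47 that could be tested passed over combinations listed in both libraries. The risers were *Nfasc*, which anchors the axon initial segment (228 and 439 pairs), *Nectin1* (328 and 599), *Shank2* (235 and 421) and *Shank1* (37 and 81), scaffolds of the excitatory synapse, *Dscaml1* (684 and 1015), *Celsr1* (152 and 246), *Clstn2* (162 and 257), *Elfn1* (17 and 62), *Celsr2* (9 and 31), *Mdga2* (8 and 36), *Lrrc4b* (8 and 29) and *Ntng2* (8 and 24). Most of these genes have a GC content near 50%, from 49.0% to 57.1%, and *Clstn2* with 43.5% and *Mdga2* with 36.3% were the exceptions. With the GC trend removed, 2 of the 12 still passed and no other gene of the list did. The median log2 ratio of the list was 0.29 with the trend removed and 0.27 over combinations listed in both libraries. The part of base composition in this list was not tested.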

How the data were processed

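RNA–DNA pairs of Input and H3K27me3-RADIP mESCs were analysed. The authors cut tags of a fixed length from each joined molecule, mapped them to mm10, kept uniquely mapped pairs outside blacklisted regions, assigned RNA tags to GENCODE genes and DNA tags to 25-kb bins, and merged all libraries. The study describes 4 biological replicates per group, whereas the labels list 8 libraries per group without saying which share a replicate. The submitters' processing notes name BWA 0.7.15-r1140, STAR 2.5.0a and CASAVA 1.8.2. The deposited values are P-values and q-values from a negative binomial model of the authors, and they kept combinations with a q-value of at most 0.1. The other deposited columns are positions, read as counted from 1 with both ends included. Pairs before that limit, expression and H3K27me3 occupancy were not analysed here.

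Lines were counted per RNA name and per bin. Depth was 1305107 and 1415135 pairs, at which 3 pairs, taken as the smallest detectable share, are 0.000230% and 0.000212%, though a bin enters the tables only with several pairs. Pairs repeating both tag positions of another made up 7.28% and 9.60% of member pairs. TMM factors (trims of 30% and 5%) and the exact negative binomial test, with an assumed coefficient of variation of 0.1 and Benjamini–Hochberg adjustment over all shared pcRNAs, were coded in Python 3.11.15 and tested on simulated data. The simulated data had the same assumed variation and no limit per bin, so they check the code and not the calls. The packages were pandas 2.3.3, numpy 2.4.6 and scipy 1.17.1. Figures used matplotlib 3.10.9. Shares have Wilson intervals, their differences Newcombe intervals, and ratios of pairs have Clopper–Pearson intervals. Gene positions and GC content came from an older GENCODE release than the authors used, on the same build, and all member identifiers matched it. RefSeq promoters matched 72 of the 97 members.

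Members, lists and rules were chosen with earlier results of these data known. A total of 60 members were named by rule: the most pairs per library and per family, the highest and lowest ratios, every member past the test, the most pairs among those in 1 library, and the longest and shortest mean distances. Any other gene was picked with its values known. Alternatives changed the normalization, the assumed variation, repeated tags, the q-value limit, gene identity, the filters on pairs, the definition of distance and the weight of members, and, added later, removed the GC trend or kept only combinations listed in both libraries.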

Additional observations from a re-analysis of the deposited data

How the results depend on the processing

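The number of members past the test was 21 (13 higher, 8 lower) and lay between 19 and 29 with totals of pcRNA pairs, no assumed variation, repeated tags counted once, a q-value limit of 0.01, gene identifiers or a minimum of 20 pairs. The split was 10 higher and 9 lower with totals of pcRNA pairs, and of the 22 with the q-value limit of 0.01, 15 were among the 21. The number was 1 with an assumed coefficient of variation of 0.2 and 0 with 0.4, 7 with the GC trend removed, and 0 over combinations listed in both libraries, the last 2 added after the data were seen. For the other adhesion and synapse genes the count was 12, and it was 18 with no assumed variation, 0 with 0.2 or 0.4, 2 with the GC trend removed, 0 over combinations listed in both libraries, and 8 to 12 otherwise. The assumed variation lowers both counts by construction, and with the GC trend the cause was not tested. Of 240 values for 27 named members under 9 alternatives, 151 kept direction and side of the threshold, 84 kept the direction and no longer passed, and 5 turned sign. No assumed variation and a minimum of 20 pairs each left all 27 as they were, and neither was likely to remove a call. Members that had not passed also count as kept when they again did not pass. With the q-value limit of 0.01, the log2 ratios that no longer passed were those of *Adgrl3* (-0.020), *Cntnap2* (-0.59), *Tenm1* (-0.63), *Pcdh15* (1.13) and *Ptpre* (0.80), and *Cdh6* gave no value. With totals of pcRNA pairs they were those of *Cdh6* (1.48), *Nlgn2* (1.26) and *Nrxn2* (0.58), and with repeated tags counted once those of *Cdh6* (1.41) and *Nrxn2* (0.64). Those that turned sign were *Cntn5* (0.052) and *Tenm1* (0.012), which had passed, over combinations listed in both libraries, and, without having passed, *Ptprg* (-0.012 with totals of pcRNA pairs, -0.033 with the q-value limit of 0.01) and *Ctnna1* (0.15 with the GC trend removed). The members with a median distance at least 1.5 times longer numbered 21, and 12 over combinations listed in both libraries, 11 with a limit of 2 times and 15 to 26 otherwise. The rise in pairs above 100 kb was 3.30 percentage points, 0.91 with each member given the same weight and 1.20 to 5.36 otherwise. The rise in pairs outside the own gene was 5.18 points, 2.37 with equal weights and 1.85 to 5.31 otherwise. The share of pcRNA pairs rose by 0.160 to 0.2005 points under its alternatives. No paired analysis was possible because the libraries, though numbered alike in both groups, were merged before deposit, and for the same reason none could be left out. Depth limits the members with few pairs, whose ratios rest on 1 or 2 listed bins.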
